A study of Mus musculus with 16 samples.

Results

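The genes described here are 35 members of the mouse chaperone network: heat shock proteins, their co-chaperones, the transcription factor Hsf1 and the 8 subunits of the cytosolic chaperonin. They were taken by symbol from a table of 48709 gene identifiers, and all 35 were found. RNA was measured by sequencing in heart and liver of 8 female C57BL/6J mice aged 3 to 6 months, with no treatment. The tested animals were 4 Msr quadruple knockouts (QKO), in which the 4 genes of the methionine sulfoxide reductases (Msra, Msrb1, Msrb2 and Msrb3) were targeted, and the controls were 4 wild type (WT) mice. Each animal gave a heart and a liver, so there were 16 libraries in 4 groups of 4. How the alleles were made and which part of each gene was removed is not given in the sources used here. Every animal carries its own number in the labels. Numbers starting with 47 (series 47) belong to animals 1 and 2 of each genotype and those starting with 48 (series 48) to animals 3 and 4. The labels do not say what the number marks, and values of 4 libraries are listed below in the order of animals 1 to 4.

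Chaperones bind unfolded or newly made proteins and help them reach or keep their folded state. HSP70 proteins work in cycles of ATP use that are started by J-domain co-chaperones and ended by exchange factors such as HSP110 and BAG proteins, HSP90 proteins mature kinases and receptors with a set of co-chaperones, and small heat shock proteins hold unfolding proteins without ATP. The cytosolic chaperonin (CCT, also TRiC) is a double ring that folds actin and tubulin, and Hspd1 with Hspe1 forms the corresponding chamber of mitochondria. HSF1, the protein made from Hsf1, binds inverted repeats of a short unit, the heat shock element, when unfolded protein builds up, and switches on the inducible members. In striated muscle, small heat shock proteins and BAG3 take part in the upkeep of the sarcomere.

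Total counts were 43.7 M to 71.8 M in QKO hearts, 42.1 M to 72.6 M in WT hearts, 48.3 M to 67.9 M in QKO livers and 37.9 M to 62.5 M in WT livers. Of these, 9.21 M to 28.2 M per heart library and 21.6 M to 40.7 M per liver library fell on coding genes. The lowest count of a member in any library was 15, for Hspb7 in liver, and 30 members had over 100 counts in every library. Of the targeted genes, Msrb2 had 0 to 0.0625 CPM (counts per 1 M counts of scaled library size) in QKO livers, against 3.47 to 8.44 CPM in WT livers, and 0.0844 to 0.169 CPM in QKO hearts, against 8.81 to 10.7 CPM in WT hearts. Msrb3 and Msra were lower in every QKO library than in every WT library of the tissue. Msrb1 overlapped between the genotypes in liver and was at 13.6 to 17.2 CPM in QKO hearts, against 10.2 to 11.8 CPM in WT hearts, so these RNA values show no loss of Msrb1 and do not check that allele. Defining genes of hepatocytes summed to 45266 to 64109 CPM in liver and 42.2 to 262 CPM in heart, and those of cardiomyocytes to 13197 to 16178 CPM in heart and 12.7 to 56.9 CPM in liver. WT livers 3 and 4 stood apart: 8 pancreatic acinar genes summed to 674 and 194 CPM there, against 0.774 to 2.34 CPM in the other 6 livers, and 8 skeletal muscle genes summed to 199 CPM in WT liver 4, against 0.491 to 17.0 CPM in the other 7. These are tissue extracts, in which fewer cells of a type and less RNA per cell cannot be told apart.

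Several members share sequence with other genes, so their counts are less certain. In 20 of the 35 a stretch of 75 bases, the read length, also occurs in another gene, and in 15 this holds for over 5% of such stretches. The share was 61.7% in Hspa1a and 55.8% in Hspa1b, 2 nearly identical genes on chromosome 17 (GRCm38, 34969190 to 34972156 and 34956436 to 34959238, minus strand). It was 68.6% in Hspa8 and 53.1% in Hsp90aa1, both with many processed pseudogenes, and 47.3% in Hspb1. In Dnaja4, 51.45% of such stretches also occur in Wdr61. Exons of 13 members overlap those of another gene, such as Gm20481 on the opposite strand of Hspa1a (564 bp) and Hspb2 beside Cryab (252 bp). Whether the counting used strand is not given in the sources used here. Gm15459 and Gm26825, which lie on opposite strands and both share sequence with Hspa8, had equal counts in 12 of 16 libraries. A second such pair, Hsp25-ps1 and Gm9817, which share sequence with Hspb1, had equal counts in 1 of 16 and differed by up to 31 counts. Counts of such pairs cannot be assumed free of shared reads.

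The promoters of the members were searched for the heat shock element, since many members are textbook targets of HSF1. RefSeq windows of 300 bases (250 before and 50 after a start, GRCm38.p6) were given for 28 of the 35 members. The letters searched were GAANNTTC and TTCNNGAA, each of which is its own reverse complement, so both strands are covered. Matches may overlap by 3 bases, and overlapping matches of both forms make a run of 3 or more alternating units. At least 1 match was present in 16 of the 28 members (57.1%), against 17.0% of all 27025 genes with a window, and a run of 3 or more units was present in 4 (14.3%), against 0.662% of all genes. The 4 were Chordc1, Hsph1, Hspd1 and Hspe1. Of the chaperonin subunits, 7 had a window, and Cct2, Cct5 and Cct6a held 1 match each. Hsp90aa1, Hsp90ab1, Hspa8, Hspa9, Cryab, Hsf1 and Cct4 had no window in the table.

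The 200 bases before the start are shown for 3 members, in the direction of the gene, with matches in capitals: the inducible paralogs Hspa1a and Hspa1b, whose counts differed in opposite directions between heart and liver, and Hspb1 with 2 matches. The first is chr17:34972157-34972356, minus strand, the second chr17:34959239-34959438, minus strand, and the third chr5:135887719-135887918, plus strand.
Hspa1a: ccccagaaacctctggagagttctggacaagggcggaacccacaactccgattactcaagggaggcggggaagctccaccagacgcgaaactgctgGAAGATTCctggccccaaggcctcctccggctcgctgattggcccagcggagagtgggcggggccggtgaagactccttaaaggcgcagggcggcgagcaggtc
Hspa1b: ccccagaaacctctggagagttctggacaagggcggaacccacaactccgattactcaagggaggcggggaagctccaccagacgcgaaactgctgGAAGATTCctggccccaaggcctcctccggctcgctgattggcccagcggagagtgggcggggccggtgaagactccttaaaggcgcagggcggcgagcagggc
Hspb1: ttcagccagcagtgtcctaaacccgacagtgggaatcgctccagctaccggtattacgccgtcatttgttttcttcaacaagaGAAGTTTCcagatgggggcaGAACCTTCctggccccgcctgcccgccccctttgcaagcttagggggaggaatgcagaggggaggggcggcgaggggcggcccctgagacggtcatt
The Hspa1a and Hspa1b stretches are equal at 199 of 200 bases, and their only match lies at the same distance from the start. A match is a description of letters, not of binding. Hspd1 and Hspe1 lie head to head, with exons that overlap by 112 bp in GENCODE, and their windows hold the same run. Hspd1 has a second window, which holds 0 matches.

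**Figure D1:**
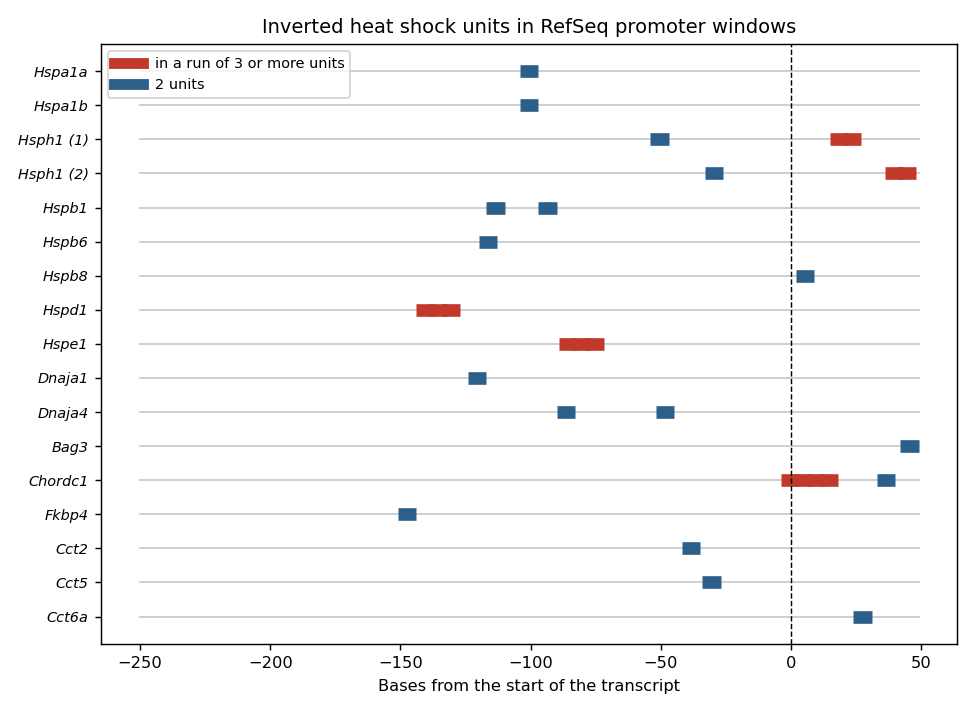
Positions of inverted heat shock units in the RefSeq promoter windows of members that hold at least 1, as bases from the start of the transcript (dashed line), with 1 grey line per window and a number after a gene with several windows. Blue marks are matches of 2 units and red marks belong to a run of 3 or more; Hspe1 and 1 of the 2 Hspd1 windows show the same run from both sides, and Hspa1a and Hspa1b have their match at the same place.

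The first comparison asked how the network differs between the organs. In WT animals, 4 of the 5 small heat shock proteins, Dnaja4, Bag3 and Serpinh1 were higher in heart than in liver, whereas both mitochondrial chaperonin subunits, Hsp90aa1, Dnaja1, Dnajb1, Hspa1b and all 8 subunits of the cytosolic chaperonin were lower in heart. By edgeR's quasi-likelihood test with Benjamini-Hochberg adjustment over 18204 genes (threshold 0.05), 10 members were higher in heart, where 35.6% of all genes tested were higher, and 19 were lower, where 36.9% of all genes tested were lower. The median log2 change was -0.39 over the members and -0.03 over all genes. The WT libraries did not overlap between the organs for 28 of the 35, and for 68.5% of all genes tested. CPM in this comparison is scaled over the 8 WT libraries of both organs and differs from the CPM scaled within 1 organ that is used further below.

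The 3 largest log2 changes of the members belonged to the small heat shock proteins Hspb7, Cryab and Hspb6. Hspb7, a cardiac and muscle small heat shock protein (chromosome 4, 141420779 to 141425311, plus strand), had 328, 347, 340.4 and 291 CPM in WT hearts, against 0.404, 0.183, 0.223 and 1.98 CPM in WT livers. The log2 change was 8.89 ± 0.80 (SE, edgeR adjusted p = 1.633e-06). Cryab, the alpha-B crystallin that binds desmin and other filaments (chromosome 9, 50751325 to 50756636, plus strand), had 221, 244, 216 and 239.8 CPM in WT hearts, against 0.707, 0.701, 0.724 and 3.96 CPM in WT livers, a log2 change of 7.25 ± 0.65 (SE, edgeR adjusted p = 1.600e-06). In both genes WT liver 4 was far above the other livers, and that library also held the skeletal muscle transcripts. Without the animal it came from, the log2 changes were 10.37 and 8.31. Hspb6, a partner of Cryab in muscle, had 57.5, 60.3, 58.5 and 47.4 CPM in WT hearts, against 1.23, 1.09, 1.77 and 2.39 CPM in WT livers, a log2 change of 5.11 ± 0.24 (SE, edgeR adjusted p = 1.207e-08). Hspb1, which protects the actin skeleton, had 24.3, 33.02, 33.4 and 34.95 CPM in WT hearts, against 5.88, 7.85, 12.9 and 8.19 CPM in WT livers, a log2 change of 1.85 ± 0.22 (SE, edgeR adjusted p = 1.716e-05). In each of these 4 genes every heart was above every liver. Hspb8, which works with BAG3 in clearing misfolded proteins, was the exception of the class, at 141 to 150.1 CPM in WT hearts and 104 to 184 CPM in WT livers, with overlapping groups, and its log2 change was 0.15 ± 0.19 (SE, edgeR adjusted p = 0.486). Without animal 4 it passed, at 0.36 (adjusted p = 0.0386 by edgeR).

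Other members higher in heart had different roles. Dnaja4, a J-domain co-chaperone of HSP70, had 26.9, 32.6, 29.6 and 31.98 CPM in WT hearts, against 3.17, 3.30, 3.15 and 2.95 CPM in WT livers, a log2 change of 3.27 ± 0.11 (SE, edgeR adjusted p = 1.964e-09). Its exons overlap those of Wdr61 over 1581 bp. Bag3, the exchange factor that links HSP70 to small heat shock proteins, had 44.8, 44.7, 53.2 and 45.9 CPM in WT hearts, against 7.25, 5.13, 7.79 and 9.02 CPM in WT livers, a log2 change of 2.69 ± 0.17 (SE, edgeR adjusted p = 8.266e-08). Serpinh1, the collagen chaperone of the endoplasmic reticulum, had 71.99, 74.4, 82.3 and 101 CPM in WT hearts, against 9.21, 8.24, 11.7 and 21.3 CPM in WT livers, a log2 change of 2.71 ± 0.29 (SE, edgeR adjusted p = 6.361e-06). For all 3 the organs were fully separated. Hsf1 itself had 5.66, 5.76, 7.06 and 6.33 CPM in WT hearts, against 2.28, 3.47, 3.85 and 3.22 CPM in WT livers, a log2 change of 0.94 ± 0.17 (SE, edgeR adjusted p = 4.270e-04). Hspa4l, an exchange factor of the HSP110 family, had 30.6, 31.9, 41.6 and 34.4 CPM in WT hearts, against 24.7, 23.7, 31.4 and 21.1 CPM in WT livers, a log2 change of 0.46 ± 0.14 (SE, edgeR adjusted p = 0.0146), with a heart and a liver library overlapping. Without animal 2 its adjusted p was 0.0539.

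Of the other HSP70 proteins and exchange factors, Hspa8 and Hsph1 were lower in heart, and Hspa9 and Hspa4 did not pass the test. Hspa8, the constitutive cytosolic HSP70, had 377, 391, 479 and 511 CPM in WT hearts, against 680.5, 602, 718 and 823 CPM in WT livers, a log2 change of -0.68 ± 0.20 (SE, edgeR adjusted p = 0.00852). Without animal 1 its adjusted p was 0.0516. Hsph1, an HSP110 exchange factor, had 18.4, 23.2, 25.003 and 23.6 CPM in WT hearts, against 32.3, 30.9, 52.5 and 44.9 CPM in WT livers, a log2 change of -0.83 ± 0.18 (SE, edgeR adjusted p = 0.00153). Every liver was above every heart in both. Hspa9, the mitochondrial HSP70, was at 192 to 224 CPM in WT hearts and 212 to 235 CPM in WT livers, and Hspa4, another HSP110 member, at 62.5 to 72.8 CPM in WT hearts and 60.2 to 70.5 CPM in WT livers. Both overlapped and did not pass the test (adjusted p = 0.475 and 0.841 by edgeR). The inducible genes Hspa1a and Hspa1b are described together below.

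The HSP90 pair split. Hsp90aa1, the stress-inducible cytosolic HSP90, had 33.2, 34.9, 51.4 and 49.9 CPM in WT hearts, against 90.3, 79.1, 122 and 106 CPM in WT livers, a log2 change of -1.23 ± 0.20 (SE, edgeR adjusted p = 1.640e-04). Hsp90ab1, its constitutive paralog, was at 263 to 303 CPM in WT hearts and 272 to 353 CPM in WT livers, and its log2 change was -0.15 ± 0.16 (SE, edgeR adjusted p = 0.424). Of the co-chaperones of HSP90, Ahsa1, which speeds its ATPase, had 20.1, 20.6, 22.2 and 22.7 CPM in WT hearts, against 38.5, 42.3, 48.01 and 46.5 CPM in WT livers, a log2 change of -1.03 ± 0.11 (SE, edgeR adjusted p = 6.008e-06). Chordc1, a CHORD-domain partner of HSP90, had 12.96, 14.1, 15.5 and 15.3 CPM in WT hearts, against 26.7, 21.995, 28.2 and 27.03 CPM in WT livers, a log2 change of -0.84 ± 0.11 (SE, edgeR adjusted p = 4.253e-05). Stip1, the adaptor that joins HSP70 to HSP90, had 29.3, 23.7, 26.3 and 30.1 CPM in WT hearts, against 36.5, 39.998, 45.4 and 45.8 CPM in WT livers, a log2 change of -0.61 ± 0.12 (SE, edgeR adjusted p = 8.294e-04). These 3 were separated between the organs. Fkbp4, an immunophilin of steroid receptor complexes, and Cacybp, a calcyclin-binding protein, overlapped and did not pass the test (adjusted p = 0.451 and 0.107 by edgeR).

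The J-domain proteins that pair with inducible HSP70 and the mitochondrial chaperonin were lower in heart. Dnaja1 had 18.03, 22.4, 22.7 and 23.4 CPM in WT hearts, against 87.5, 70.9, 70.8 and 60.6 CPM in WT livers, a log2 change of -1.74 ± 0.14 (SE, edgeR adjusted p = 8.979e-07). Dnajb1, the classical partner of inducible HSP70, had 7.70, 11.6, 8.85 and 10.95 CPM in WT hearts, against 17.3, 21.2, 22.6 and 29.3 CPM in WT livers, a log2 change of -1.21 ± 0.18 (SE, edgeR adjusted p = 1.005e-04). The organs were separated in both genes, opposite in direction to Dnaja4. Hspd1, the HSP60 barrel of mitochondria (chromosome 1, 55077835 to 55088243, minus strand), had 74.6, 74.5, 83.2 and 70.9 CPM in WT hearts, against 168, 199, 149.9 and 149 CPM in WT livers, a log2 change of -1.14 ± 0.15 (SE, edgeR adjusted p = 3.780e-05). Hspe1, its lid (chromosome 1, 55088132 to 55091307, plus strand), had 16.8, 18.7, 19.2 and 18.5 CPM in WT hearts, against 55.1, 46.6, 40.7 and 47.6 CPM in WT livers, a log2 change of -1.38 ± 0.12 (SE, edgeR adjusted p = 1.015e-06). These 2 genes, which lie head to head, were lower in heart by a similar amount.

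All 8 chaperonin subunits were lower in heart, each by less than 2-fold on the scale over both organs. The scaling factors of the libraries were 0.461 to 1.22 in WT hearts and 1.31 to 1.70 in WT livers. The size of changes between organs rests on this scaling. Tcp1, the alpha subunit, had 66.5, 69.2, 68.8 and 65.6 CPM in WT hearts, against 108, 114, 102 and 89.8 CPM in WT livers, a log2 change of -0.61 ± 0.13 (SE, edgeR adjusted p = 0.00105). Cct2 had 36.9, 42.2, 44.2 and 40.1 CPM in WT hearts, against 61.1, 59.1, 56.6 and 56.8 CPM in WT livers, a log2 change of -0.52 ± 0.11 (SE, edgeR adjusted p = 0.00123). Cct3 had 37.3, 39.4, 36.7 and 39.1 CPM in WT hearts, against 50.6, 55.2, 53.9 and 49.02 CPM in WT livers, a log2 change of -0.45 ± 0.10 (SE, edgeR adjusted p = 0.00192). Every heart was below every liver in these 3 and in the other 5 subunits. Cct4 had 43.3, 47.2, 43.8 and 50.3 CPM in WT hearts, against 64.7, 60.7, 57.04 and 59.2 CPM in WT livers, a log2 change of -0.39 ± 0.11 (SE, edgeR adjusted p = 0.00821). Cct5 had 43.4, 45.4, 44.7 and 41.9 CPM in WT hearts, against 74.8, 71.3, 72.3 and 82.5 CPM in WT livers, a log2 change of -0.78 ± 0.11 (SE, edgeR adjusted p = 7.045e-05). Cct6a had 33.1, 35.7, 37.7 and 35.02 CPM in WT hearts, against 72.4, 68.6, 67.9 and 59.1 CPM in WT livers, the largest fall of the ring at -0.92 ± 0.11 (SE, edgeR adjusted p = 2.229e-05).

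Cct7 had 41.6, 44.2, 41.6 and 42.7 CPM in WT hearts, against 51.4, 53.4, 50.1 and 51.998 CPM in WT livers, a log2 change of -0.28 ± 0.10 (SE, edgeR adjusted p = 0.0232). It was the smallest change of the ring and the least certain, since its adjusted p by edgeR was 0.0549 with the animal as a block and 0.0571 to 0.0913 without animal 1, 2 or 3. Cct8 had 31.7, 31.05, 34.8 and 31.7 CPM in WT hearts, against 53.6, 52.5, 50.05 and 44.5 CPM in WT livers, a log2 change of -0.63 ± 0.11 (SE, edgeR adjusted p = 2.649e-04). Without animal 1 the adjusted p of Cct4 was 0.0673 and that of Cct7 0.0913, and 6 of 8 subunits still passed. The RNA changes of the 8 subunits ranged from -0.28 to -0.92 on the log2 scale.

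The same test in the 4 QKO animals, added after the data had been seen, gave a similar picture. Over 18039 genes, 9 members were higher in heart, where 37.2% of all genes were higher, and 16 were lower, where 37.1% were lower. All 25 had passed in WT animals in the same direction. The log2 change was 10.12 ± 0.22 (SE, edgeR adjusted p = 2.411e-12) for Hspb7, 8.04 ± 0.23 (SE, edgeR adjusted p = 8.992e-12) for Cryab and 5.30 ± 0.17 (SE, edgeR adjusted p = 2.590e-11) for Hspb6. Hspd1 and Hspe1 were at -1.11 ± 0.11 and -1.21 ± 0.15 (SE), and the 6 chaperonin subunits that passed at -0.41 to -0.82. Hspa1a, Hspa1b, Cct4 and Cct7 passed in WT animals and not in QKO animals. With the animal as a block, which uses that heart and liver came from the same mice, Hspa1a (log2 change 1.54, adjusted p = 4.445e-05) and Hspa1b (-1.56, adjusted p = 0.0011) passed in QKO animals as well by edgeR. Hspa1b also passed without animal 1 (adjusted p = 0.0477). The test of the difference between genotypes called none of these genes, as given below. Dnajb1 did not pass in QKO animals without animal 2, 3 or 4 (adjusted p = 0.0886 to 0.132). Without animal 3 Hspa8, Hsph1, Chordc1 and Stip1 were lost too, and without animal 4 Hsph1 and Chordc1.

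**Figure D2:**
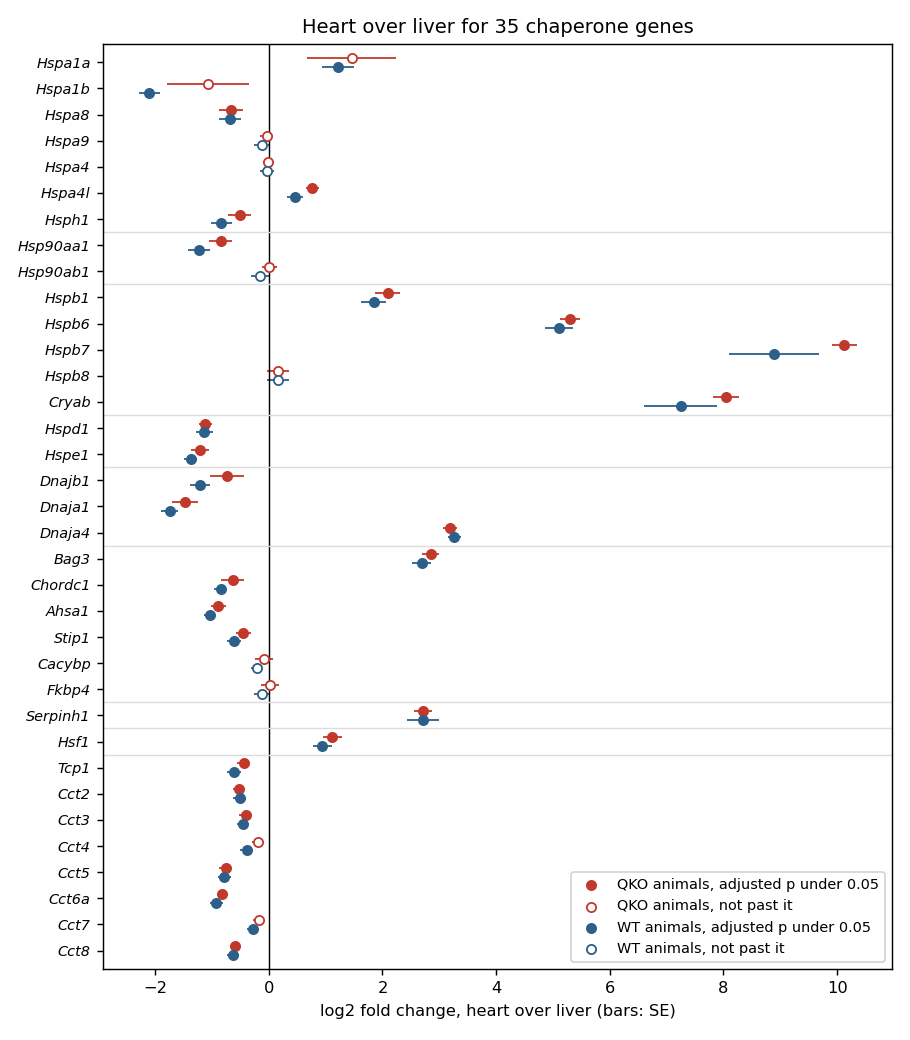
Log2 fold change of heart over liver for the 35 members, with QKO animals above WT animals in each row and bars of 1 SE (n = 4 animals per genotype); filled points have an edgeR adjusted p under 0.05. Of the small heat shock proteins Hspb7 reaches 10.12 in QKO and 8.89 in WT animals, and the chaperonin subunits at the bottom lie between -0.92 and -0.18.

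Levels between genes were compared per kilobase of exon, within each organ. In liver Hspa8 came first, with 215 ± 65.1 CPM per kb in QKO livers and 229 ± 31.3 in WT livers (SD, n = 4). Hsp90ab1 followed with 135 ± 12.5 in QKO livers and 146 ± 18.8 in WT livers, and Hspb8 with 92.2 ± 30.8 in QKO livers and 93.4 ± 26.8 in WT livers. The next gene, Hspd1, was at 83.5 ± 6.12 in QKO livers and 87.7 ± 11.7 in WT livers, within the spread of Hspb8. On the length of the longest transcript Hspa9 was at 96.5 ± 8.08 in QKO livers and 101 ± 3.73 in WT livers, beside Hspb8 at 98.99 ± 33.1 and 100.3 ± 28.8 and above Hspd1 at 91.1 ± 6.68 and 95.7 ± 12.7, so the order behind Hsp90ab1 depends on the length used and on differences within the spread. In heart Cryab came first, with 119 ± 7.90 CPM per kb in QKO hearts and 115 ± 6.92 in WT hearts, and Hspb7 second with 84.4 ± 4.64 in QKO hearts and 86.9 ± 6.53 in WT hearts. Hspa8 and Hsp90ab1 followed at 69.8 to 75.3 in both genotypes, within their spread of each other. On the longest transcript Hspa8 was second in heart, with 128 ± 17.98 in QKO hearts and 135 ± 20.6 in WT hearts, so the order behind Cryab depends on the length used. The 8 chaperonin subunits, which stand in equal number in the ring, differed 2.63-fold from lowest to highest in QKO hearts, 2.67-fold in WT hearts, 3.53-fold in QKO livers and 3.57-fold in WT livers, with Cct2 highest in heart and Cct5 in liver. On the longest transcript the factor was 2.02 to 2.31 and Tcp1 was highest in all 4 groups.

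The paralogs Hspa1a and Hspa1b differed in opposite directions between the organs. In WT animals Hspa1a had 1.75, 2.06, 1.90 and 3.38 CPM in WT hearts, against 1.43, 0.895, 0.724 and 0.938 CPM in WT livers, a log2 change of 1.22 ± 0.28 (SE, edgeR adjusted p = 0.00226). Hspa1b had 3.29, 2.43, 2.11 and 2.99 CPM in WT hearts, against 14.5, 12.2, 9.31 and 11.03 CPM in WT livers, a log2 change of -2.10 ± 0.18 (SE, edgeR adjusted p = 1.083e-06). Every heart was above every liver for Hspa1a, and below every liver for Hspa1b. The ratio of Hspa1a to Hspa1b counts was 0.914, 1.06, 1.12 and 2.07 in QKO hearts and 0.532, 0.847, 0.900 and 1.13 in WT hearts, against 0.211, 0.206, 0.0833 and 0.0808 in QKO livers and 0.0989, 0.0735, 0.0777 and 0.0850 in WT livers. No heart overlapped any liver. The log2 ratio was higher in the heart than in the liver of the same mouse in 8 of 8 animals, by 3.27 ± 0.88 on average (SD), with a two-sided exact permutation p of 0.00781 by flipping signs, the smallest that 8 animals can give. This comparison was chosen after the values had been seen. The ratio is one of assigned counts: reads from the identical parts cannot be placed, and how they were counted is not given in the sources used here. Gm20481 on the opposite strand of Hspa1a had 0.207 to 0.526 times the counts of Hspa1a in heart and 0.312 to 0.470 times in liver, with no separation of the organs. Hspa1l, another HSP70 gene, shares 5.88% of the 75-base stretches of Hspa1a. It had 85, 61, 124 and 376 counts in WT hearts, where Hspa1a had 74, 50, 54 and 300. In WT livers Hspa1l had 17, 44, 41 and 29 counts, and Hspa1a 71, 83, 68 and 62. In QKO hearts Hspa1l had fewer counts than Hspa1a in animals 1 and 2 and more in animals 3 and 4. Its part in the Hspa1a difference between the organs was not tested.

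**Figure D3:**
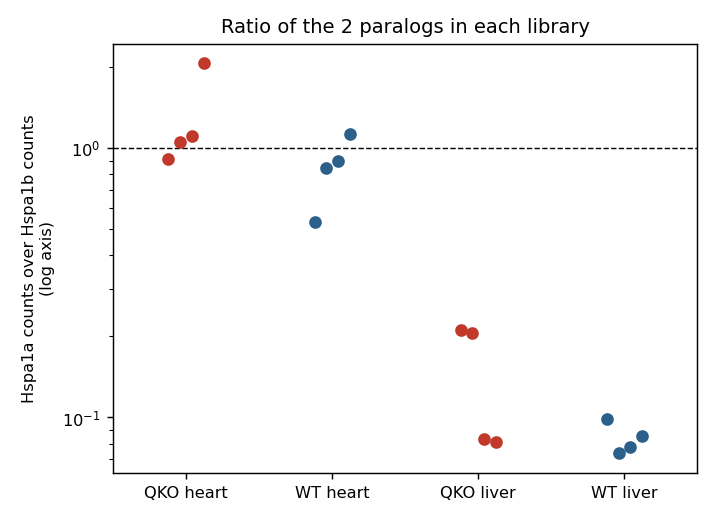
Counts of Hspa1a divided by counts of Hspa1b in each of the 16 libraries (points, log axis), with hearts left of livers and QKO left of WT within each organ; the dashed line marks equal counts. The 8 hearts lie between 0.532 and 2.07 and the 8 livers between 0.0735 and 0.211.

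The second comparison asked whether these genes differed with the quadruple knockout genotype. No member passed the test in liver. All 35 were tested by edgeR's quasi-likelihood test over 17738 genes, of which 0.0846% passed. The smallest adjusted p among the members was 0.9997, 0 members had an unadjusted p under 0.05, where 3.29% of all genes had one, and DESeq2 also called 0 members, with 1 left without an adjusted p. The libraries of the genotypes overlapped for every member, while 2.11% of all genes tested did not overlap. By sign, 33 of the 35 were lower in QKO livers and 2 higher, against 48.8% higher over all genes, and the median log2 change was -0.09 over the members and -0.01 over all genes. The members are not independent of each other, and the sign count moved when libraries were left out: 5 of 35 were higher without WT liver 1, 5 without WT liver 3, 9 without WT liver 4, 11 without QKO liver 1 and 8 without QKO liver 2. With both WT livers 3 and 4 left out 18 were higher, and the median was 0.01. These 2 are the livers that held pancreatic transcripts, in WT liver 4 with muscle transcripts as well. They are also all WT livers of series 48, so other tissue and the series cannot be told apart there.

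The 8 members with the smallest unadjusted p in liver came from several classes. Hspa4l had 25.9, 26.2, 25.2 and 33.7 CPM in QKO livers, against 34.1, 32.6, 44.1 and 29.5 CPM in WT livers, a log2 change of -0.34 ± 0.16 (SE). Hsph1 had 39.7, 48.1, 36.8 and 49.1 CPM in QKO livers, against 44.6, 42.6, 73.9 and 62.8 CPM in WT livers, a log2 change of -0.37 ± 0.19 (SE). Hsp90aa1 had 74.8, 106, 81.8 and 150.0 CPM in QKO livers, against 125, 109, 172 and 149 CPM in WT livers, a log2 change of -0.43 ± 0.23 (SE). In these 3, WT liver 3 was the highest library of the 8. Hspb7 had 0.422, 0.249, 0.402 and 0.511 CPM in QKO livers, against 0.558, 0.253, 0.314 and 2.77 CPM in WT livers, a log2 change of -1.28 ± 0.69 (SE). Cryab had 1.05, 1.58, 0.832 and 1.56 CPM in QKO livers, against 0.976, 0.968, 1.02 and 5.55 CPM in WT livers, a log2 change of -0.75 ± 0.55 (SE). In both, WT liver 4 held over 3 times the count rate of every other liver, and without it the log2 changes were 0.12 and 0.35. Dnaja1 had 68.3, 79.99, 95.4 and 98.9 CPM in QKO livers, against 121, 97.9, 99.6 and 84.8 CPM in WT livers, a log2 change of -0.23 ± 0.16 (SE). Hspa1a had 3.58, 4.82, 0.429 and 0.670 CPM in QKO livers, against 1.98, 1.24, 1.02 and 1.31 CPM in WT livers, a log2 change of 0.80 ± 0.61 (SE). Its QKO livers 1 and 2 were above all WT livers and QKO livers 3 and 4 below them. Dnajb1 had 27.3, 33.5, 22.6 and 25.1 CPM in QKO livers, against 23.8, 29.3, 31.8 and 40.96 CPM in WT livers, a log2 change of -0.21 ± 0.18 (SE).

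Of the remaining liver members, Hspa1b (-0.28 ± 0.37, SE), Bag3 (-0.22 ± 0.20) and Chordc1 (-0.22 ± 0.22) did not pass either. The 8 chaperonin subunits together summed to 697, 702, 687 and 695 CPM in QKO livers and 741, 737, 717 and 689.8 CPM in WT livers, and their single log2 changes ran from -0.13 (Cct8) to -0.01 (Cct2), with SEs of 0.11 to 0.13. Hspd1 averaged 221 ± 16.2 CPM in QKO livers and 232 ± 30.9 CPM in WT livers, and Hspe1 59.4 ± 12.8 CPM in QKO livers and 66.1 ± 7.75 CPM in WT livers (SD, n = 4). Hspa8 averaged 924 ± 280.0 CPM in QKO livers and 983 ± 135 CPM in WT livers. Hsf1 averaged 4.06 ± 0.841 CPM in QKO livers and 4.47 ± 0.956 CPM in WT livers. The SEs were 0.11 to 0.37 on the log2 scale for 32 members and 0.55 to 0.69 for Hspa1a, Hspb7 and Cryab, whose estimates are the least precise.

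In heart the members were nearly centred on their WT levels, and again none passed. All 35 were tested over 16974 genes, of which 0.165% passed by edgeR; the smallest adjusted p of a member was 0.738, 0 members had an unadjusted p under 0.05, where 7.19% of all genes had one, and DESeq2 also called 0. The libraries of the genotypes overlapped for every member, while 4.67% of all genes tested did not overlap. Of the members 18 were higher and 17 lower in QKO hearts, and the median log2 change was 0.00 over the members, as over all genes.

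The 8 members with the smallest unadjusted p in heart were 4 chaperonin subunits, both inducible HSP70 genes, Hspb1 and Cacybp. Cct4 had 34.9, 37.2, 36.6 and 39.2 CPM in QKO hearts, against 31.8, 34.7, 32.4 and 37.2 CPM in WT hearts, a log2 change of 0.12 ± 0.07 (SE), edgeR adjusted p = 0.738. Cct8 had 21.98, 22.3, 21.1 and 23.7 CPM in QKO hearts, against 23.3, 22.8, 25.7 and 23.5 CPM in WT hearts, a log2 change of -0.10 ± 0.06 (SE), edgeR adjusted p = 0.766. Tcp1 had 48.5, 51.6, 53.4 and 56.6 CPM in QKO hearts, against 48.9, 50.9, 50.8 and 48.5 CPM in WT hearts, a log2 change of 0.08 ± 0.06 (SE), edgeR adjusted p = 0.806. Cct6a had 26.2, 28.3, 26.98 and 28.2 CPM in QKO hearts, against 24.3, 26.3, 27.8 and 25.9 CPM in WT hearts, a log2 change of 0.07 ± 0.06 (SE), edgeR adjusted p = 0.814. These changes of the ring differed in sign, and its summed level was 242, 261, 257 and 282 CPM in QKO hearts and 245, 261, 260.2 and 256 CPM in WT hearts. Hspb1 had 21.8, 23.6, 28.4 and 29.95 CPM in QKO hearts, against 17.9, 24.3, 24.6 and 25.9 CPM in WT hearts, a log2 change of 0.17 ± 0.12 (SE), edgeR adjusted p = 0.784. Cacybp had 14.1, 14.2, 11.7 and 11.9 CPM in QKO hearts, against 12.9, 11.4, 11.7 and 12.7 CPM in WT hearts, a log2 change of 0.08 ± 0.08 (SE), edgeR adjusted p = 0.839. Hspa1a had 7.91, 4.60, 0.566 and 1.29 CPM in QKO hearts, against 1.29, 1.51, 1.40 and 2.50 CPM in WT hearts, a log2 change of 0.99 ± 0.57 (SE), edgeR adjusted p = 0.738. Hspa1b had 8.65, 4.35, 0.507 and 0.625 CPM in QKO hearts, against 2.42, 1.78, 1.56 and 2.21 CPM in WT hearts, a log2 change of 0.73 ± 0.65 (SE), edgeR adjusted p = 0.823. In both HSP70 genes QKO hearts 1 and 2 were above all WT hearts and QKO heart 3 below all of them. With 1 library left out the log2 change of Hspa1a ranged from 0.28, without QKO heart 1, to 1.35, and that of Hspa1b was -0.22 without QKO heart 1. With the number series as a term they were 0.56 and 0.12, and with both hearts of number 4 left out 1.62 and 1.18. Neither muscle chaperone passed: Hspb7 averaged 234 ± 12.8 CPM in QKO hearts and 241 ± 18.1 CPM in WT hearts, and Cryab 176 ± 11.7 CPM in QKO hearts and 169.8 ± 10.2 CPM in WT hearts (SD, n = 4).

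**Figure D4:**
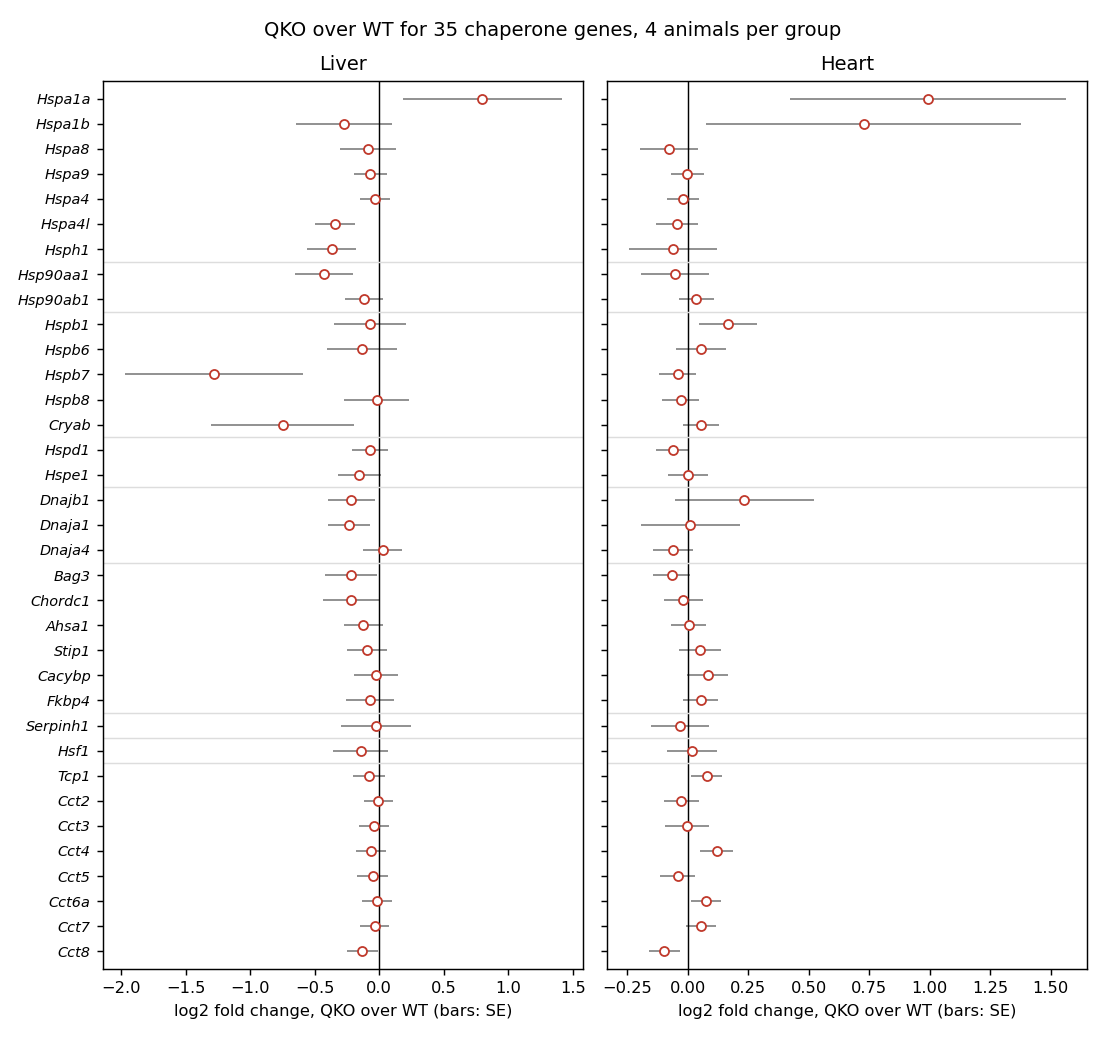
Log2 fold change of QKO over WT for the 35 members in liver (left) and heart (right), with bars of 1 SE and 4 animals per group; the horizontal scales differ. No point passed the test. In liver 33 points lie below 0, with Hspb7 at -1.28 and Hspa1a at 0.80 farthest out, and in heart Hspa1a (0.99) and Hspa1b (0.73) stand out from the rest.

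Whether the genotype difference itself differed between the organs was tested as the heart effect minus the liver effect over all 16 libraries. No member passed (smallest adjusted p 0.9999 by edgeR), where 0.00511% of 19587 genes did, and 0 members had an unadjusted p under 0.05 (4.0% of all genes had one) or were called by DESeq2, which gave 2 members no adjusted p. The 3 smallest unadjusted p belonged to Hspb7, with a log2 difference of 1.20 ± 0.69 (SE), Hspa4l, with 0.28 ± 0.19 (SE), and Cryab, with 0.77 ± 0.59 (SE). Their values in every library are given above. Hspb7 and Cryab turned to -0.27 and -0.30 without WT animal 4, whose liver held muscle transcripts.

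Several inducible genes differed between the QKO hearts of series 47 and those of series 48. Of the 35 members, 11 were higher in both QKO hearts of series 47 than in both of series 48, as were 22.0% of 15436 genes tested in both organs, 8 were lower, as were 22.6%, and 16 overlapped. In QKO hearts of series 47 (animals 1 and 2) Hspa1a, Hspa1b, Dnajb1, Dnaja1, Hsph1 and Hsp90aa1 were all above those of series 48 (animals 3 and 4), while in WT hearts Dnaja1, Hsph1 and Hsp90aa1 were lower in series 47 and the other 3 overlapped. These 6 genes and the comparison were chosen after the values had been seen. The 8 members lower in both QKO hearts of series 47 were Hspa8, Hspa4l, Hsp90ab1, Hspb1, Dnaja4, Serpinh1, Tcp1 and Cct5. Of these 8, Hspb1 and Dnaja4 hold 2 matches to the heat shock element in a promoter window. Of the 4 members with a run of 3 or more heat shock units, Hsph1 is among the 6. The others, Chordc1, Hspd1 and Hspe1, overlapped between the series in QKO hearts. The QKO effect in series 47 minus that in series 48 was tested in heart with 2 animals per genotype and series: 5 members passed by edgeR, where 0.159% of 16974 genes passed (27 genes). The calls changed when 1 library was left out, but such fits leave 1 animal in a group of genotype and series. They assume that it varies like the others, so neither a lost nor a kept call shows which animals the difference came from. The part of single animals was not tested. The differences themselves stayed positive under all 11 alternatives. Without WT heart 1 they were 3.08 for Hspa1a, 3.60 for Hspa1b, 0.88 for Hsph1, 0.83 for Hsp90aa1 and 1.01 for Dnaja1, and without QKO heart 3 they were 2.83, 3.23, 0.94, 0.73 and 1.17 in the same order. None of the 5 calls held in every fit with 1 library left out. Over the 11 alternatives the differences ranged from 2.65 to 4.02 for Hspa1a and from 2.76 to 3.76 for Hspa1b. The ranges were 0.876 to 1.21 for Hsph1, 0.73 to 1.02 for Hsp90aa1, 0.997 to 1.32 for Dnaja1 and 1.07 to 1.67 for Dnajb1.

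The values show the pattern gene by gene. The heart and liver libraries of Hspa1a were given above, as were the heart libraries of Hspa1b and the liver libraries of Hsph1, Dnaja1, Dnajb1 and Hsp90aa1. For Hspa1a the log2 difference between the series was 3.21 ± 0.48 (SE, edgeR adjusted p = 0.0157). For Hspa1b it was 3.33 ± 0.43 (SE, edgeR adjusted p = 0.00508). QKO hearts 1 and 2 held over 3 times the Hspa1a and Hspa1b rates of QKO hearts 3 and 4, whereas the WT hearts lay within a 2-fold range. Dnaja1 had 23.8, 19.1, 11.1 and 11.02 CPM in QKO hearts, against 13.3, 16.5, 16.7 and 17.3 CPM in WT hearts, a log2 difference of 1.17 ± 0.16 (SE, edgeR adjusted p = 0.0107). Hsph1 had 21.1, 19.8, 10.7 and 12.6 CPM in QKO hearts, against 13.5, 17.1, 18.5 and 17.5 CPM in WT hearts, a log2 difference of 1.04 ± 0.16 (SE, edgeR adjusted p = 0.0167). Hsp90aa1 had 33.6, 32.7, 24.4 and 29.9 CPM in QKO hearts, against 24.4, 25.6, 37.9 and 36.9 CPM in WT hearts, a log2 difference of 0.86 ± 0.14 (SE, edgeR adjusted p = 0.0192). In these 3 genes the QKO hearts were highest in series 47 and the WT hearts in series 48. Dnajb1 had 14.6, 9.998, 4.51 and 5.44 CPM in QKO hearts, against 5.66, 8.56, 6.53 and 8.10 CPM in WT hearts, a log2 difference of 1.37 ± 0.28 (SE, edgeR adjusted p = 0.0838), which did not pass.

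Within series 47 alone, with 2 animals per group, the log2 change of QKO over WT hearts was 2.17 ± 0.24 (SE) for Hspa1a and 1.59 ± 0.26 for Hspa1b, with edgeR adjusted p of 2.168e-04 and 0.00928, and Hsp90aa1 passed too (0.41 ± 0.09, adjusted p = 0.0393), where 0.662% of all genes passed. Within series 48 it was -1.04 ± 0.35 for Hspa1a (adjusted p = 0.462) and -1.73 ± 0.27 for Hspa1b (adjusted p = 0.0372), and Hsph1 (-0.61 ± 0.10, adjusted p = 0.0471) and Dnaja1 (-0.63 ± 0.09, adjusted p = 0.0216) passed as well, where 0.203% of all genes passed. The pooled estimates of 0.99 and 0.73 for Hspa1a and Hspa1b in heart therefore average changes of opposite sign. Of the 8 immediate early genes measured, the sum was 41.8, 36.1, 24.8 and 20.4 CPM in QKO hearts and 27.5, 31.5, 24.2 and 24.6 CPM in WT hearts, so it was highest in the same 2 QKO hearts, and its part in the result was not tested.

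The livers of the same mice gave the same order for part of these genes. Hspa1b had 16.99, 23.4, 5.15 and 8.30 CPM in QKO livers, against 20.03, 16.8, 13.1 and 15.4 CPM in WT livers. In QKO livers Hspa1a, Hspa1b and Dnajb1 were higher in series 47 than in series 48, as in QKO hearts, whereas Dnaja1 was lower and Hsph1 and Hsp90aa1 overlapped. The QKO effect in series 47 minus that in series 48 was 2.45 ± 0.51 (SE, edgeR adjusted p = 0.278) for Hspa1a, 1.21 ± 0.35 (SE, edgeR adjusted p = 0.51) for Hspa1b and 0.80 ± 0.28 (SE, edgeR adjusted p = 0.622) for Dnajb1. No member passed in liver, where 0.0507% of 17738 genes passed by edgeR, although 7 of 35 had an unadjusted p under 0.05, as did 6.96% of all genes, and DESeq2 called Hspa1a. Within series 47 and within series 48, 0 members passed in liver, where 0.0825% and 0.185% of all genes passed. The immediate early genes summed to 32.2, 45.0, 59.7 and 45.6 CPM in QKO livers and 27.1, 29.1, 27.7 and 54.6 CPM in WT livers, an order that differs from that of Hspa1a.

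In 2 members series 48 was above series 47 in both genotypes and organs. Hspa8 had 262, 282, 323 and 359 CPM in QKO hearts, against 277, 288, 353 and 378 CPM in WT hearts, and 671, 715, 1056 and 1256 CPM in QKO livers, against 939.7, 831, 1010.5 and 1152 CPM in WT livers. Serpinh1 had 51.3, 52.04, 65.5 and 69.3 CPM in QKO hearts, against 52.9, 54.7, 60.8 and 75.003 CPM in WT hearts, and 15.01, 14.1, 18.9 and 21.1 CPM in QKO livers, against 12.7, 11.4, 16.4 and 29.8 CPM in WT livers. In each of the 4 groups both animals of series 48 were above both of series 47, which held for these 2 of the 35 members and for 0.596% of 15436 genes, and the reverse order in all 4 groups for 0 members and 0.687% of genes. What else differed between the series is not given in the labels. The WT livers of series 48 are livers 3 and 4, which held pancreatic transcripts, in WT liver 4 with muscle transcripts as well. Other tissue and the series cannot be told apart in that group.

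**Figure D5:**
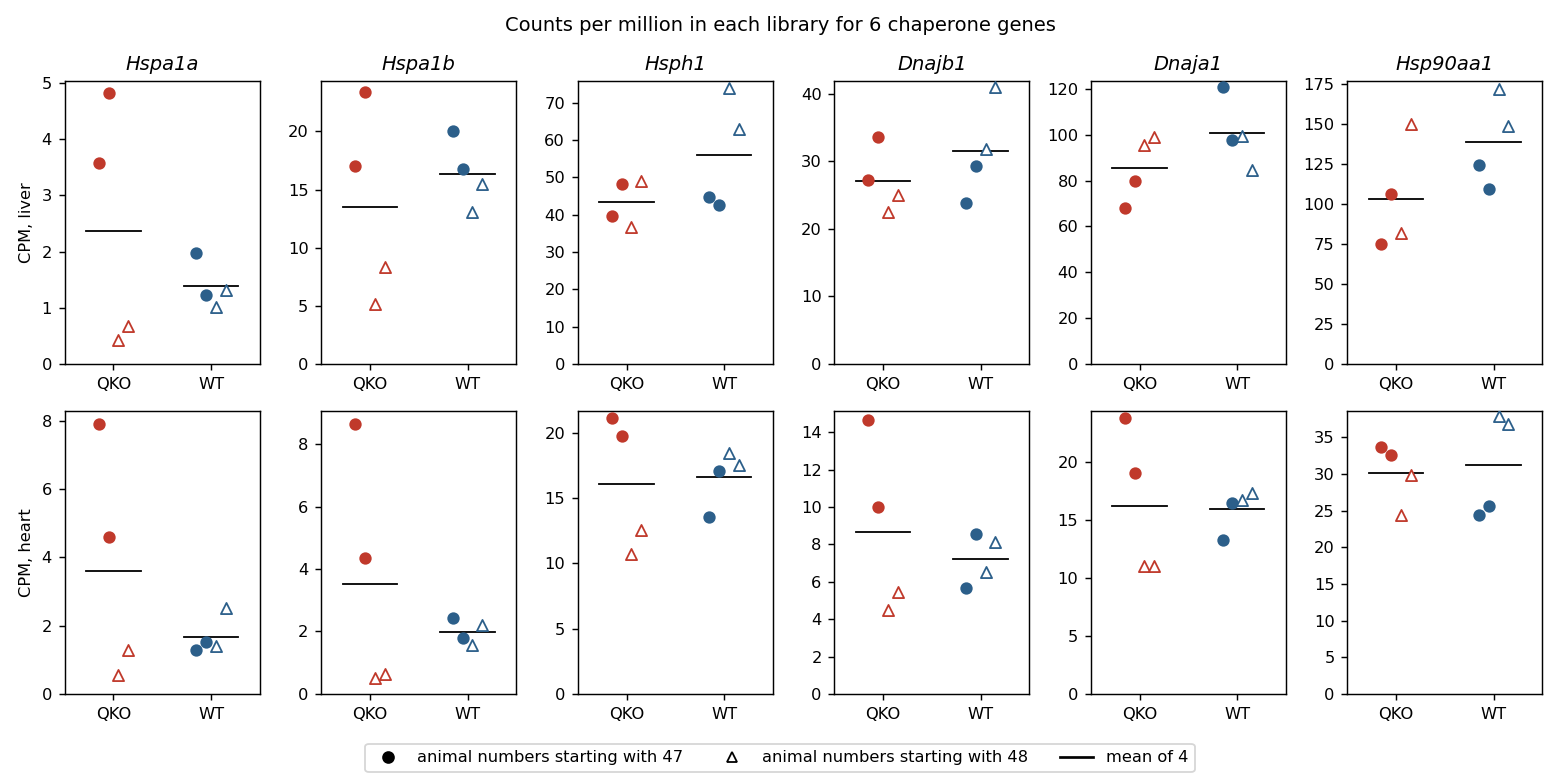
CPM of 6 inducible members in each library, with liver in the upper row, heart in the lower row and QKO left of WT; filled circles are animals of series 47, open triangles animals of series 48 and black lines means of 4. In heart the QKO circles lie above the QKO triangles in all 6 panels, and in liver for Hspa1a, Hspa1b and Dnajb1.

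Other genes of the chaperone network, a list of 52 chosen with earlier results of these data known, were measured in the same fits. Of the 50 tested in each organ, 0 passed for QKO over WT in liver and 0 in heart by edgeR, with 0 and 3 at an unadjusted p under 0.05. In liver 20 were higher in QKO animals (median log2 change -0.03), and in heart 29 (0.02). The smallest p in liver belonged to Ahsa2, a relative of Ahsa1 (-0.27 ± 0.13, SE), Bag4, a BAG domain protein (0.27 ± 0.14), and Hspa13, an HSP70 of the endoplasmic reticulum (-0.24 ± 0.15). In heart they belonged to Stub1, the ubiquitin ligase of HSP70 (0.17 ± 0.06), Pfdn1, a prefoldin subunit that passes actin and tubulin to the chaperonin (0.19 ± 0.07), and Dnajb4 (-0.20 ± 0.09). Adjusted p was 0.607 or higher for all of these by edgeR.

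Between the organs of WT animals 16 of the 50 were higher in heart and 19 lower by edgeR, close to the 35.6% and 36.9% of all genes, and 15 did not pass. The highest in heart were Unc45b and Smyd1, which serve myosin folding and assembly in muscle, at log2 changes of 6.95 and 6.15, and the small heat shock protein Hspb2 (6.29). The liver level of such muscle genes includes WT liver 4, which held muscle transcripts. Hspb3, for example, had 0, 0, 1 and 21 counts in the 4 WT livers, so no fold is given for it. Hspa12b (3.45), Hspa12a (3.18) and Hspa1l (2.94), members of the wider HSP70 family, and the J-domain gene Dnajb5 (3.84) were higher as well. Lowest in heart were the immunophilins Fkbp8 (-2.45) and Fkbp5 (-2.12) and Bag4 (-2.13). Trap1, the mitochondrial HSP90 (-1.07), and Grpel1, the exchange factor of mitochondrial HSP70 (-1.19), were lower in heart like Hspd1 and Hspe1. This did not hold for the mitochondrial HSP70 itself, Hspa9, which did not pass (-0.12, adjusted p = 0.475 by edgeR). Hspb2 lies beside Cryab, and part of its exons overlap, so the 2 values may share reads.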

How the data were processed

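The authors deposited raw counts of reads per gene for 16 libraries; per the labels' protocols these were stranded, ribosome-depleted total RNA libraries, read in pairs of 75 bases. CASAVA, bcl2fastq, FastQC, cutadapt, HISAT2, featureCounts, limma and mm10 are named, without versions, in the submitters' processing notes. Symbols and exon lengths come from GENCODE M21, which matched 48349 of 48709 identifiers, and promoters from RefSeq (GRCm38.p6). Counts were tested with edgeR 4.0.16 in R 4.3.3 (TMM scaling, low counts filtered by group, quasi-likelihood F test, Benjamini-Hochberg threshold 0.05 over all genes tested). QKO was compared with WT in 1 organ at a time, organs within 1 genotype, and the QKO effect between organs and between number series in a joint fit. SEs are the log2 change over the root of F. DESeq2 1.42.0 was the second tool. The fits were also run on simulated counts with known fold changes. The share recovered is not given here, so that run does not say how small a change could be detected. Named members are those that passed between organs in WT, the 8 with the smallest p in each genotype comparison and the 3 in the difference between organs. The members and lists were chosen with earlier results of these data known. Nothing in the sources says more of how the 4 animals of a group relate, so p-values measure the spread between these animals. Heart and liver of an animal are paired by its number in the labels, and WT and QKO numbers do not pair animals. The main edgeR fits between organs, and of the QKO effect between organs, did not use this pairing. The animal as a block was an alternative. No 2 replicate libraries of the same group agreed within counting noise, and libraries of different groups were not compared in this way.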

Additional observations from a re-analysis of the deposited data

Results flagged for a closer look

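In groups of 4 libraries, 9 of 140 combinations of member and group had 1 library set far apart from the other 3, where chance gives about 1 in 20. These were Hspa4 at 83.1 CPM in WT liver 1 and 53.7 CPM in WT heart 3, Hspa4l at 33.7 CPM in QKO liver 4, and Hspb7 at 2.77 CPM and Cryab at 5.55 CPM in WT liver 4. Bag3 was at 11.5 CPM in QKO liver 2 and 39.3 CPM in WT heart 3, Cacybp at 22.4 CPM in WT liver 2, and Cct4 at 71.8 CPM in QKO liver 3. The Hspb7 and Cryab values come from the liver library in which skeletal muscle genes summed to 199 CPM, and the part of that tissue in them was not tested.

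The QKO effect in heart differed between number series 47 and 48 for 5 members by a test of the difference itself (edgeR, 2 animals per genotype and series): Hspa1a by 3.21 on the log2 scale, Hspa1b by 3.33, Hsph1 by 1.04, Hsp90aa1 by 0.87 and Dnaja1 by 1.17. QKO hearts 1 and 2 were higher than QKO hearts 3 and 4 for all 5. No member remained past the threshold without WT heart 1, where these differences were 3.08, 3.60, 0.88, 0.83 and 1.01 in the same order, or without QKO heart 3, where they were 2.83, 3.23, 0.94, 0.73 and 1.17. None changed sign under the 11 alternatives run.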

How the results depend on the processing

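In liver, genes past the threshold for QKO over WT numbered 15, against 50 by DESeq2, 9 with protein-coding genes only, 44 with all 16 libraries fitted together and 33 within series 48. Members higher in QKO numbered 2, against 18 (median log2 change 0.008) without WT livers 3 and 4, 12 within series 47, 10 within series 48 and 2 to 11 with 1 library left out. Without WT livers 3 and 4 the log2 change turned to 0.012 for Hspb7, 0.38 for Cryab and 0.031 for Dnajb1. Within series 47 it turned to 0.009 for Hsph1, 0.43 for Cryab and 0.19 for Dnajb1, and within series 48 to 0.086 for Dnaja1 and -1.05 for Hspa1a. With 1 library left out it ranged from -1.61 to 0.12 for Hspb7 and from -0.99 to 0.35 for Cryab.

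In heart, genes past the threshold numbered 28, against 64 by DESeq2, 102 without a filter, 16 with all 16 libraries, 108 within series 47 and 18 to 25 with 1 library left out. Members past it numbered 0, against 3 within series 47 (median 0.07) and 3 within series 48, where Hspa1a was at -1.04, Hspa1b at -1.73 and Cacybp at -0.053. With 1 library left out Hspa1a ranged from 0.28 to 1.35 and Hspa1b from -0.22 to 1.13, and with the number series as a term they were 0.56 and 0.12.

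With the replicate number as a block, 50 genes in heart and 16 in liver passed, and 0 members; the numbers do not pair the genotypes. For the heart effect minus the liver effect, 1 gene passed, against 13 by DESeq2, 2 without a filter, 0 with the animal as a block and 1 to 2 with 1 animal left out, when Hspb7 ranged from -0.27 to 1.57 and Cryab from -0.30 to 1.06.

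For the difference between series in liver, 9 genes passed, against 97 by DESeq2 (1 member), 14 with protein-coding genes only and 0 to 105 with 1 library left out. In heart 27 passed, against 60 by DESeq2, 43 with protein-coding genes only and 0 to 83 with 1 library left out, when 0 to 6 members passed. Causes of these moves were not tested.

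The organ comparison kept its direction, in each genotype, for all members past the threshold under every alternative run. Leave-one-out fits with 1 animal in a cell assume that it varies like the others. Low counts limit Hspb7 in liver, and other members in single libraries. QKO heart 3 had 29 counts of Hspa1a and 26 of Hspa1b. QKO liver 3 had 16 counts of Hspa1a and 31 of Cryab.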
